A study of Mus musculus with 23 samples.

Results

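Ccnd1, which encodes cyclin D1, lies near the end of mouse chromosome 7, and 9 genes beside it are described here in the hippocampus of Ins2 wild-type and knockout mice: Cttn, Ppfia1, Fadd, Ano1, Gm26793, Fgf15, Lto1, Tpcn2 and Mrgprf. They were chosen by position, within 1 Mb of Ccnd1, with the fold changes between genotypes and the levels in library WT 23 already known. Those values are therefore given as a description and support nothing beyond themselves. No p-value is given for any of them, and how many crossed a threshold is listed only beside the share of all genes that did. The deposited table holds 45706 genes, of which 18 start within 1 Mb of Ccnd1, and 8 of the 9 genes described passed the filter on low counts, Fgf15 being the exception.

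The study sequenced hippocampal RNA from female mice carrying both copies of Ins2 (Ins2+/+, WT, n = 12 libraries) or none (Ins2-/-, KO, n = 11 libraries); its title concerns insulin made in the brain, learning and memory. Ins2 encodes one of the insulins of the mouse, and the knockout is a constitutive loss of the gene as far as the labels tell; strain, age, litter and batch are not given in the sources used here. Nothing in the labels says that each library is a separate animal, so p-values measure the spread between these libraries. Totals were 13792274 to 22520798 counts in WT and 14863640 to 22953261 in KO, and a gene with 0 counts could have had up to 3, or 0.131 to 0.218 CPM (counts scaled by library size to a common total), which covers counting error only. Ins2, which starts 2.2 Mb from Ccnd1, had 0 counts in the 11 KO libraries (up to 0.0156 CPM over all of them) and 26 counts in WT, spread over 7 of 12 libraries with 18 of them in WT 17. The genes fixed as markers of hippocampal neurons, 9 of 9 detected, summed to 1053 to 1629 CPM in 22 libraries and to 497 CPM in KO 8. KO 8 also held 1462 CPM of 10 hypothalamic genes, against at most 8.71 CPM elsewhere. The 8 choroid plexus genes, which mark the secretory lining of the ventricles, summed to 3156 to 20034 CPM in WT 14, WT 17, KO 2, KO 6 and KO 12 and to at most 96.3 CPM in the others. Fold changes of the 9 genes that move by over 1.5 times, or lose their fit, without these 6 libraries are also given without them.

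The segment is known in human tumours, where the matching stretch is amplified in several carcinomas and the cyclin D1 gene with it. Its genes share position and not function. Fgf15 encodes a secreted growth factor that acts through FGF receptors and a klotho co-receptor, best known as the gut hormone that restrains bile acid synthesis, and is active in the embryonic brain. Gm26793 is an antisense RNA gene running against it. Cttn encodes cortactin, which stabilises branched actin and is abundant in dendritic spines, Ppfia1 encodes a liprin-alpha scaffold that binds LAR-type receptor phosphatases, and Fadd is the adaptor between death receptors and their caspase. Ano1 forms a calcium-activated chloride channel, Tpcn2 a cation channel of endosomes and lysosomes, and Mrgprf encodes an orphan receptor of the Mas-related family. Lto1 is an adaptor in the loading of iron-sulfur clusters onto the ribosome recycling factor Abce1.

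On GRCm38, with GENCODE M21 gene models, the order along chromosome 7 is Cttn (144435733 to 144471009), Ppfia1 (144476758 to 144553729), Fadd (144577318 to 144582463), Ano1 (144588549 to 144751974), Gm26793 (144894560 to 144897461), Fgf15 (144896531 to 144900953), Lto1 (144915100 to 144931701), Ccnd1 (144929931 to 144939925), Tpcn2 (145186524 to 145284011) and Mrgprf (145300828 to 145309557). Fgf15, Lto1 and Mrgprf are on the plus strand and the others on the minus strand. Starts lie between 24825 bases (Lto1) and 468916 bases (Cttn) from that of Ccnd1. Both Gm26793 with Fgf15 and Lto1 with Ccnd1 are pairs on opposite strands that overlap, over 761 and 1100 exonic bases. The bases below open the Fgf15 coding sequence (chr7:144896679-144896768, GRCm38, plus strand, read from the GENCODE M21 transcript), with the start codon in capitals. They are shown because the same bases, read on the other strand, are part of the Gm26793 transcript, as are 331 of the 654 coding bases of Fgf15, so that reads from there belong to either gene unless strand is used.

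Fgf15 coding start: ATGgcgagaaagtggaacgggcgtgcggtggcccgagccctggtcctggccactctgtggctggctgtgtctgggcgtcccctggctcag

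Promoter windows of 300 bases, ending 50 bases after the start, were taken from RefSeq on GRCm38.p6 and matched by symbol for 6 of the 9 genes. Those of the gene with the largest fold change, of the gene that starts nearest to Ccnd1, and of the gene with the smallest error among those lower in KO are shown. Capitals mark matches, on either strand, to the GC box GGGCGG or to the CCAAT box. The windows are those of Gm26793 (chr7:144899639-144899938, minus strand), Lto1 (chr7:144914850-144915149, plus strand) and Ppfia1 (chr7:144553680-144553979, minus strand).

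Gm26793: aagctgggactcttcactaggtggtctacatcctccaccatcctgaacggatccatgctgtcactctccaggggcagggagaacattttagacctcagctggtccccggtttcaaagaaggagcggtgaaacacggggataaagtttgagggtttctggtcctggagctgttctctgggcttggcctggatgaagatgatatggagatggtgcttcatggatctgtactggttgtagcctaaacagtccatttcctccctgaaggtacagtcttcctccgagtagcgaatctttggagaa

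Lto1: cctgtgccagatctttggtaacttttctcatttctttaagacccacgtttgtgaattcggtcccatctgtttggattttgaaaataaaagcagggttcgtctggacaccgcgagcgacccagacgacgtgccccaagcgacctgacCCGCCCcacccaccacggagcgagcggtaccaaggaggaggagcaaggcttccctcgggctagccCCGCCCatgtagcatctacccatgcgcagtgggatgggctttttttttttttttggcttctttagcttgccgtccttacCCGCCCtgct

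Ppfia1: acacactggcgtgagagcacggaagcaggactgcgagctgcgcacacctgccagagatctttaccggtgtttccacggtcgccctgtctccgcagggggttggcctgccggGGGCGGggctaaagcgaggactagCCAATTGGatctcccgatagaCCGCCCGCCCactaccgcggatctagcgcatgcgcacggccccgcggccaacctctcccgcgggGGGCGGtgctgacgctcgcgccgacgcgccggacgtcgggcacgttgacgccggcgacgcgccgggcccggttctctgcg

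Each window was searched on both strands for the GC and CCAAT boxes, the TATA box TATAAA, the E-box CACGTG and the cyclic AMP response element TGACGTCA. The Gm26793 window held none of the 5, which says only that these letters are not in it. Of its 300 bases, 290 lie within the coding exons of Fgf15, because the RefSeq model of Gm26793 starts 2227 bases before the GENCODE model used here. The Lto1 window held 3 GC boxes and no other motif. The Ppfia1 window held 4 GC boxes, of which 2 overlap, and 2 CCAAT matches that overlap on opposite strands. GC boxes also stood in the windows of Fadd (2) and Ano1 (4), and CCAAT boxes in that of Tpcn2 (2). Among all 32851 RefSeq promoter windows of this length, 35.7% held a GC box, 37.4% a CCAAT box, 13.6% a TATA box, 7.15% the E-box and 1.79% the cyclic AMP response element. The windows of these 6 genes held none of the last 3.

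In wild-type hippocampus the genes spanned a wide range of levels. Per kilobase of exon, the WT mean was highest for Cttn at 39.5 CPM per kb (SD 2.03, n = 12), ahead of Ccnd1 at 13.3 (SD 1.57), Ppfia1 at 3.53 (SD 0.216) and Lto1 at 2.29 (SD 0.135). Ano1 at 0.609 (SD 0.416), Fadd at 0.597 (SD 0.163) and Tpcn2 at 0.584 CPM per kb (SD 0.126) did not differ beyond their spread. Mrgprf at 0.203 (SD 0.18) and Gm26793 at 0.0699 CPM per kb (SD 0.112) also overlapped, and Fgf15 was last at 0.00611 (SD 0.0146). In KO the means kept Cttn (35.0), Ccnd1 (5.95), Ppfia1 (3.07) and Lto1 (2.52 CPM per kb) in front. Behind them came Mrgprf at 0.657 (SD 0.407), Fadd at 0.640 (SD 0.195), Gm26793 at 0.637 (SD 0.123), Ano1 at 0.460 (SD 0.176) and Tpcn2 at 0.443 CPM per kb (SD 0.12). These did not differ beyond their spread, and Fgf15 stayed last at 0.0444 CPM per kb (SD 0.0484, n = 11).

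**Figure D1:**
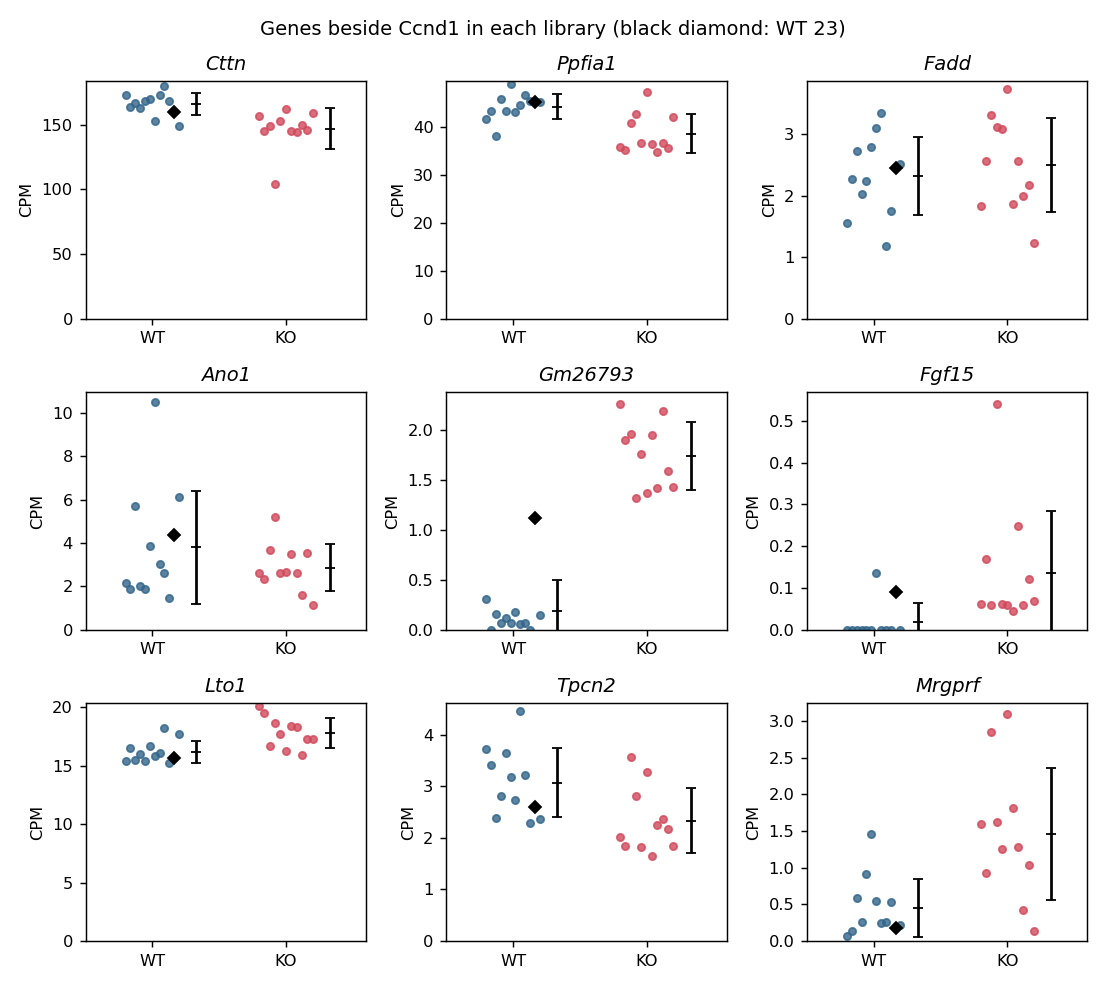
Expression of the 9 genes in each library, in CPM from 0, for WT (n = 12) and KO (n = 11); points are libraries, the black diamond is WT 23, and bars show the mean and SD, the part below 0 not being drawn. For Gm26793, KO libraries at 1.32 to 2.26 CPM lie above the WT libraries, whose highest is WT 23 at 1.12 CPM.

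The genotypes were compared over the whole table, and the rows of these genes are listed from that fit. The quasi-likelihood test of edgeR covered 15828 genes and gave 2 (0.0126%) an adjusted p (Benjamini-Hochberg) below 0.05, and Gm26793 was the 1 called among the 8 genes described that were tested. The other call was Ccnd1, whose log2 fold change was -1.15 (SE 0.0661). Without adjustment 6 of the 8 had a p below 0.05, Gm26793, Lto1, Mrgprf, Cttn, Ppfia1 and Tpcn2, against 5.74% of all tested genes. KO and WT libraries did not overlap at 1 of the 8, Gm26793, and at 0.0126% of all tested genes. The median size of the log2 fold change was 0.299 over the 8 genes and 0.0722 over all tested genes. Because this contrast was known when the genes were chosen, the counts are listed and nothing is read from them.

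Signs were mixed along the segment. Gm26793, Lto1, Mrgprf and Fadd had a positive and Cttn, Ppfia1, Ano1 and Tpcn2 a negative log2 fold change (KO minus WT). Ccnd1 was negative, and both signs occurred on either side of it. Fadd (0.10, SE 0.178) and Ano1 (-0.41, SE 0.299) were less than 2 SEs from 0. The 1 other gene within 1 Mb that passed the filter was Shank2, a postsynaptic scaffold gene whose start is 0.938 Mb away and whose log2 fold change was -0.21 (SE 0.113). Shank2 included and Ccnd1 not, 6 of the 9 tested genes within 1 Mb had an unadjusted p below 0.05. The median size of the log2 fold change over these 9 was 0.207. As 8 of the 9 were chosen with the contrast known, nothing is read from setting them against windows farther out. Among tested genes starting 1 to 2 Mb from Ccnd1, 2 of 13 had an unadjusted p below 0.05, with a median size of the log2 fold change of 0.0826. At 2 to 5 Mb these were 5 of 58 and 0.0649, and at 5 to 10 Mb 4 of 20 and 0.0729.

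**Figure D2:**
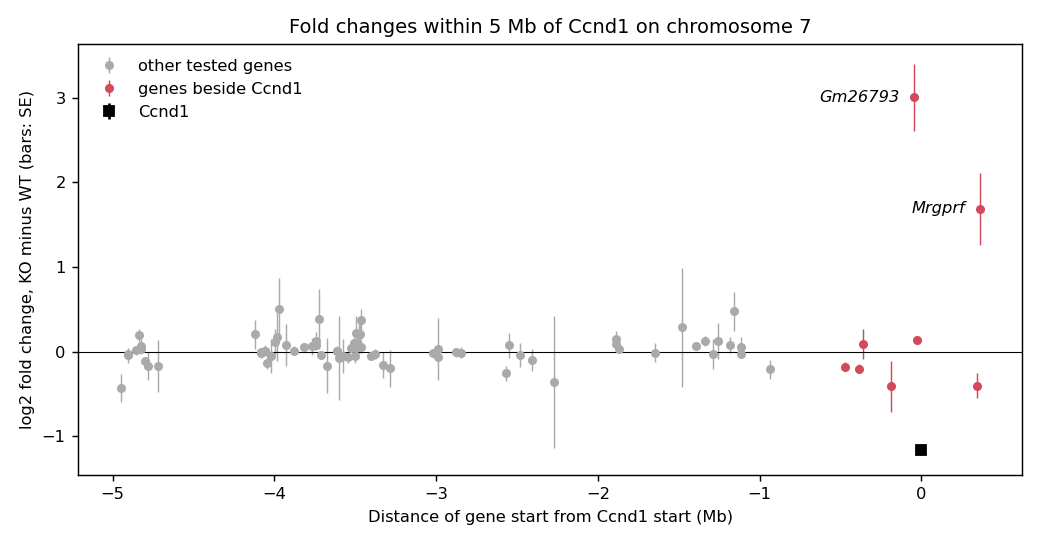
Log2 fold change (KO minus WT, y axis, bars show SE) of tested genes against the distance of their start from that of Ccnd1 on chromosome 7 (x axis, Mb; negative is toward the centromere). Gm26793 at 3.0 and Mrgprf at 1.69 stand above, and Ccnd1 at -1.15 below, the other genes within 5 Mb.

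Gm26793, the antisense gene, went from few or no counts in WT to a low level in KO. WT libraries held 0 to 1.12 CPM with a median of 0.0937, and KO libraries 1.32 to 2.26 CPM with a median of 1.76. Each KO library was above each WT library, and the WT library nearest to KO was WT 23, with the next at 0.311 CPM (WT 1). In counts this was 45 over the 12 WT libraries, 25 of them in WT 23, and 338.52 over the 11 KO libraries. Means were 0.191 ± 0.305 CPM (SD) over the 12 WT and 1.74 ± 0.336 CPM (SD) over the 11 KO libraries. The log2 fold change was 3.0 (SE 0.399), and 3.89 (SE 0.279) without WT 23.

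Fgf15, the growth factor gene on the other strand, was close to the detection limit. Of 12 WT libraries, 2 held any count, WT 15 with 3 and WT 23 with 2, or 0.135 and 0.0895 CPM. All 11 KO libraries held at least 1 count, from 0.0446 CPM in KO 13 to 0.540 CPM in KO 8, with a median of 0.0628 CPM. Total counts were 5 in WT and 26.48 in KO, and 9 of the latter came from KO 8, the library with hypothalamic RNA. The groups overlapped, since 3 of 11 KO libraries were above the highest WT library, and the gene was too low to be tested. Some of its counts are also shared with Gm26793, with which it has 761 exonic bases in common. In 4 of 23 libraries both genes had fractional counts, and in each of them the sum of both was whole within 0.005. In the other libraries both counts were whole, so no division was seen there. The sum of both genes was 0 to 1.21 CPM in WT and 1.43 to 2.32 CPM in KO, with WT 23 again the highest WT library.

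Lto1, which overlaps Ccnd1 tail to tail, had a KO mean 1.64 CPM above that of WT. WT libraries held 15.2 to 18.2 CPM with a median of 15.9, and KO libraries 15.9 to 20.1 CPM with a median of 17.7. The groups overlapped, with 5 of 11 KO libraries above the highest WT library (WT 19) and 10 of 11 above the WT median. Means were 16.2 ± 0.951 CPM (SD) over the 12 WT and 17.8 ± 1.31 CPM (SD) over the 11 KO libraries, a log2 fold change of 0.14 (SE 0.0446). Both Lto1 and Ccnd1 had fractional counts in 23 of 23 libraries, and the sum of both was whole in each of them within 0.005. Counts over the shared stretch were thus divided between genes on opposite strands, and how the Lto1 value would change without that division was not tested. The sum of Lto1 and Ccnd1 was 62.4 to 89.7 CPM in WT and 40.4 to 49.4 CPM in KO, without overlap. That separation is the one of Ccnd1, whose mean difference (KO minus WT) was -34.4 CPM, against 1.64 CPM for Lto1.

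Cttn, the cortactin gene and the most highly expressed of the group, had a KO mean at 88.6% of the WT mean. WT libraries held 149 to 180 CPM with a median of 167, and KO libraries 104 to 162 CPM with a median of 149. All 11 KO libraries were below the WT median, and 9 of 12 WT libraries were above the highest KO library (KO 12). The lowest value belonged to KO 8, and the next KO library held 144 CPM. Means were 166 ± 8.51 CPM (SD) over the 12 WT and 147 ± 15.6 CPM (SD) over the 11 KO libraries. The log2 fold change was -0.17 (SE 0.0535), and -0.13 (SE 0.0338) without KO 8. The summed hippocampal neuron markers also had a lower median in KO, 1271 CPM against 1390 CPM in WT, with 0 of 9 called by edgeR and 2 of 9 at an unadjusted p below 0.05. Besides KO 8, their sums in KO 4, KO 13 and KO 16 (1086 to 1118 CPM) were below those of all WT libraries but WT 15 (1053 CPM). The part of this in the Cttn values was not tested. In whole tissue, fewer cells of a type and less RNA per cell cannot be told apart.

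Ppfia1, the liprin-alpha gene next to Cttn, had a KO mean at 87.1% of the WT mean. WT libraries held 38.1 to 48.9 CPM with a median of 44.9, and KO libraries 34.7 to 47.4 CPM with a median of 36.6. Of the KO libraries, 7 of 11 were below the lowest WT library (WT 5), while KO 12 exceeded all but 1 WT library. Means were 44.3 ± 2.71 CPM (SD) over the 12 WT and 38.6 ± 4.09 CPM (SD) over the 11 KO libraries, a log2 fold change of -0.20 (SE 0.0516). The highest KO values were those of KO 12 and KO 8 (42.7 CPM), both among the libraries with RNA of other tissue, and of KO 22 (42.2 CPM), which is not. KO 6 and KO 2, also among the libraries with RNA of other tissue, held 40.9 and 35.9 CPM. Without those 6 libraries the means were 43.8 ± 2.50 CPM (SD, n = 10) and 36.8 ± 2.52 CPM (SD, n = 7), and the log2 fold change was -0.25 (SE 0.0466).

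Fadd, the death receptor adaptor, showed no difference beyond the spread. WT libraries held 1.18 to 3.35 CPM (median 2.37) and KO libraries 1.23 to 3.74 CPM (median 2.56), and the ranges overlapped nearly throughout. The log2 fold change was 0.10 (SE 0.178), and 0.01 (SE 0.191) without the 6 libraries with RNA of other tissue. Fadd overlaps the antisense gene Faddos over 239 exonic bases. Both were fractional in 3 of 23 libraries, with a whole sum.

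Ano1, the chloride channel gene, varied more within WT than between genotypes. WT libraries held 1.48 to 10.5 CPM with a median of 2.83, and KO libraries 1.16 to 5.22 CPM with a median of 2.64. The highest value was that of WT 15, followed by WT 24 at 6.12 CPM, and 3 of 12 WT libraries were above the highest KO library (KO 8). The log2 fold change was -0.41 (SE 0.299), less than 2 SEs from 0. It was -0.15 without WT 15, -0.52 (SE 0.299) without KO 8 and -0.65 (SE 0.385) without the 6 libraries with RNA of other tissue. With all libraries kept it was -0.16 by limma voom with quality weights. Its size thus depends on which libraries are kept and on the method. WT 15 and KO 8, which had the most Ano1 in their genotypes, also had the highest sums of the 7 thalamus and habenula genes, 211 and 400 CPM against 100 to 170 CPM elsewhere. Median sums were 127 CPM in WT and 128 CPM in KO. By edgeR 0 of the 6 tested genes were called and 4 had an unadjusted p below 0.05. The part of thalamus and habenula RNA in the Ano1 values was not tested.

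On the other side of Ccnd1, the KO mean of Tpcn2 was below, and that of Mrgprf above, the WT mean. For Tpcn2, the endolysosomal channel gene, WT libraries held 2.28 to 4.47 CPM with a median of 3.0, and KO libraries 1.65 to 3.56 CPM with a median of 2.17. Of 11 KO libraries, 7 were below the lowest WT library (WT 20), and the highest 2 were KO 6 and KO 12, both rich in choroid plexus RNA. Means were 3.07 ± 0.665 CPM (SD) over the 12 WT and 2.33 ± 0.629 CPM (SD) over the 11 KO libraries, a log2 fold change of -0.40 (SE 0.144). Without the 6 libraries with RNA of other tissue, KO held 1.65 to 2.37 CPM and WT 2.28 to 3.73 CPM, and the log2 fold change was -0.55 (SE 0.132).

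Mrgprf, the orphan receptor gene, was low in both genotypes and had the second largest fold change of the 8 tested genes. WT libraries held 0.0621 to 1.46 CPM with a median of 0.262, and KO libraries 0.136 to 3.09 CPM with a median of 1.28. The groups overlapped, with 5 of 11 KO libraries above the highest WT library (WT 14) and 10 of 11 above the WT median. The other 6 KO libraries lay within the WT range, KO 22 and KO 18 lowest at 0.136 and 0.415 CPM, and 4 of the 5 above it were among the 6 libraries with RNA of other tissue. Means were 0.449 ± 0.399 CPM (SD) over the 12 WT and 1.46 ± 0.902 CPM (SD) over the 11 KO libraries, or 90 and 286 counts in all, a log2 fold change of 1.69 (SE 0.421).

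Choroid plexus RNA moved with part of the Mrgprf values. KO 12 and KO 6, at 3.09 and 2.85 CPM, had choroid plexus sums of 13715 and 9325 CPM, and WT 14, the highest WT library, 3156 CPM. WT 17 had the most choroid plexus RNA, 20034 CPM, and only 0.248 CPM of Mrgprf. The 11 mural and fibroblast genes, all detected, summed to 136 to 300 CPM in WT (median 167) and 125 to 316 CPM in KO (median 201). The highest of these sums were those of KO 12, WT 14 and KO 6. By edgeR 0 of the 11 genes were called and 0 had an unadjusted p below 0.05. The part of these cells' RNA in the Mrgprf values was not tested. Without the 6 libraries with RNA of other tissue, Mrgprf was 0.368 ± 0.264 CPM (SD) over the 10 WT and 0.981 ± 0.564 CPM (SD) over the 7 KO libraries, with 0.0621 to 0.909 and 0.136 to 1.82 CPM. It was then below the filter and not fitted. With the choroid plexus score as a covariate the log2 fold change was 1.51 (SE 0.36).

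**Figure D3:**
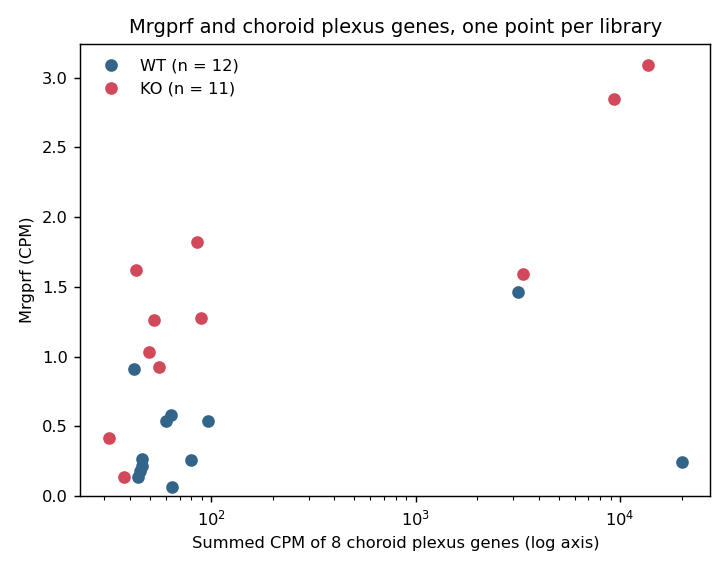
Mrgprf (y axis, CPM) against the summed CPM of 8 choroid plexus genes (x axis, log scale) in WT (blue, n = 12) and KO (red, n = 11), 1 point per library. KO 6 and KO 12 lie high on both axes, while WT 17 has the highest choroid plexus sum with 0.248 CPM of Mrgprf.

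WT 23 stood apart from the other WT libraries at Gm26793 and at Ccnd1. Its Gm26793 level, 1.12 CPM, was 11.26 SDs above the mean of the other 11 WT libraries (0.107 ± 0.0900 CPM, SD), and 62.0% of the way from that mean to the KO mean. Its Ccnd1 level, 46.7 CPM, was 2.98 SDs below their mean (63.8 ± 5.76 CPM, SD) and 47.8% of the way to the KO mean. For both genes it lay between the genotypes, below the lowest KO library of Gm26793 (1.32 CPM) and above the highest of Ccnd1 (31.1 CPM).

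At the other genes of the segment WT 23 was inside the range of the other WT libraries. It held 15.7 CPM of Lto1 (others 15.2 to 18.2), 160 CPM of Cttn (149 to 180), 45.3 CPM of Ppfia1 (38.1 to 48.9) and 2.46 CPM of Fadd (1.18 to 3.35). It also held 4.39 CPM of Ano1 (others 1.48 to 10.5), 2.60 CPM of Tpcn2 (2.28 to 4.47), 0.179 CPM of Mrgprf (0.0621 to 1.46) and 0.0895 CPM of Fgf15 (0 to 0.135). Its marker sums were also inside the range of the other libraries, at 1368 CPM for hippocampal neurons, 44.8 CPM for choroid plexus and 1.61 CPM for hypothalamus. One library allows no test, and the reason it stands apart was not tested.

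**Figure D4:**
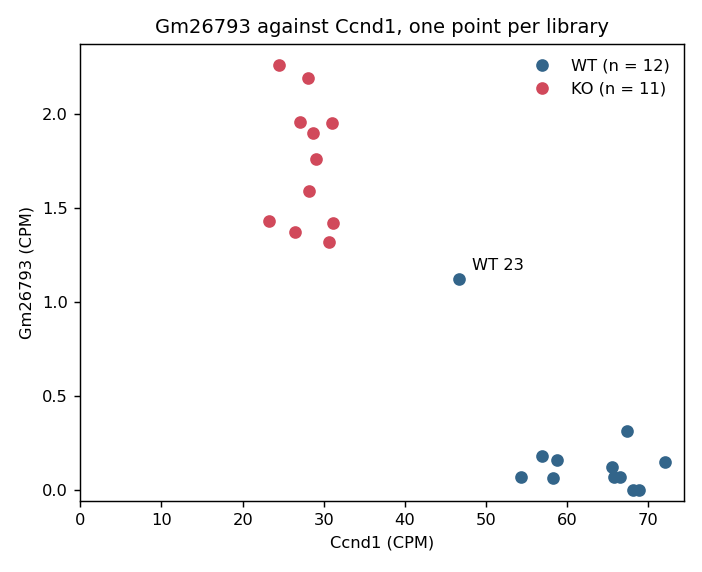
Gm26793 (y axis, CPM) against Ccnd1 (x axis, CPM) in WT (blue, n = 12) and KO (red, n = 11), 1 point per library. WT 23, at 46.7 CPM of Ccnd1 and 1.12 CPM of Gm26793, lies between the other WT libraries and the KO libraries.

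The next comparison asked whether the genes vary together from library to library within a genotype, which does not use the difference between genotypes. Pearson's r and Spearman's rho of log2 CPM were computed for the 36 pairs of the 8 tested genes and Ccnd1 in WT (n = 12) and in KO (n = 11). Outside WT 23, Gm26793 held 0 to 5 counts in the 11 other WT libraries and passed the filter through its KO counts, so nothing is read from its 8 WT pairs. After Benjamini-Hochberg adjustment over these 72 permutation tests, 0 pairs passed 0.05 by r and 0 by rho, as over the 64 tests without those 8 pairs. When log2 CPM were first fitted on the choroid plexus score within each genotype, 1 WT and 3 KO pairs passed by r, all but Ano1 with Cttn in KO also by rho, so the count depends on that adjustment. Unadjusted, 2 WT pairs without Gm26793 and 5 KO pairs had a permutation p below 0.05 for r. Median r was 0.02 in KO, where 15 of 28 pairs without Ccnd1 were positive. The WT values, 0.01 and 14 of 28, include pairs of Gm26793, so they are listed and nothing is read from them.

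Within KO the pairs with the highest Pearson's r joined Mrgprf with Ano1 and with Fadd. Mrgprf and Ano1 had r = 0.79 (permutation p = 0.00576, adjusted 0.207) and rho = 0.73 (permutation p = 0.0148, adjusted 0.481). Mrgprf and Fadd had r = 0.77 (permutation p = 0.00568, adjusted 0.207) and rho = 0.61 (permutation p = 0.0516, adjusted 0.568). Without KO 18 and KO 22, the libraries farthest from the median of Mrgprf, these r were 0.23 and 0.47, so the first rests on those libraries. Without the libraries farthest on the other axis (KO 8 and KO 22 for Ano1, KO 12 and KO 22 for Fadd) they were 0.70 and 0.38, and without KO 8 alone 0.86 and 0.77. On residuals from the choroid plexus score Mrgprf and Ano1 had r = 0.90 (permutation p = 0.00018, adjusted 0.00648). In the same fit Mrgprf and Ccnd1 had r = 0.92 (permutation p = 0.00016, adjusted 0.00648), against 0.38 without it. Neither residual value was recomputed without single libraries, though within KO only KO 2, KO 6 and KO 12 were rich in choroid plexus RNA. The permutation also made no allowance for the fitted score. Within WT, r was 0.17 for Mrgprf with Ano1 and 0.33 for Mrgprf with Fadd. Mrgprf held only 1 to 22 counts per WT library, so these WT values are listed and no difference from KO is read from them. Fadd and Ano1, which are neighbours, had the highest r within WT, 0.58 (permutation p = 0.0482, adjusted 0.408), and 0.61 in KO (permutation p = 0.0486, adjusted 0.408). Without the libraries farthest from the median of Ano1 (WT 24 and WT 15, KO 8 and KO 22) r was 0.49 in WT and 0.15 in KO. Without those farthest on the other axis it was 0.71 and 0.40. Of other neighbours, Cttn with Ppfia1 had r = 0.08 in WT and -0.09 in KO, or 0.76 without KO 8. Tpcn2 with Mrgprf had r = 0.51 in KO, and -0.17 in WT at the low counts of Mrgprf there. Whether neighbours differ from other pairs was not tested.

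The correlation of Gm26793 with Ccnd1 within WT is among the WT pairs of Gm26793 from which nothing is read. The WT 23 values were known when the genes were chosen, and the correlation is listed only as a description. It was r = -0.63 and rho = -0.37. It was -0.14 without WT 23, and -0.25 without WT 19 and WT 23, the libraries farthest from the median of Ccnd1. Within KO r was -0.11 (permutation p = 0.736, adjusted 0.947) and rho -0.26 (permutation p = 0.437, adjusted 0.865). Lto1 and Ccnd1, whose counts were divided, had r = 0.02 in WT and 0.12 in KO. Without the libraries farthest from the median of Ccnd1 (WT 19 and WT 23, KO 2 and KO 22) these were 0.35 and 0.69. Without those farthest on the other axis they were 0.09 and 0.59, so both depend on few libraries. The smallest p for rho was that of Ccnd1 with Cttn in KO (rho = -0.82, permutation p = 0.00336, adjusted 0.242), where r was -0.55 (permutation p = 0.0885, adjusted 0.478) and, without KO 8, -0.79.

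**Figure D5:**
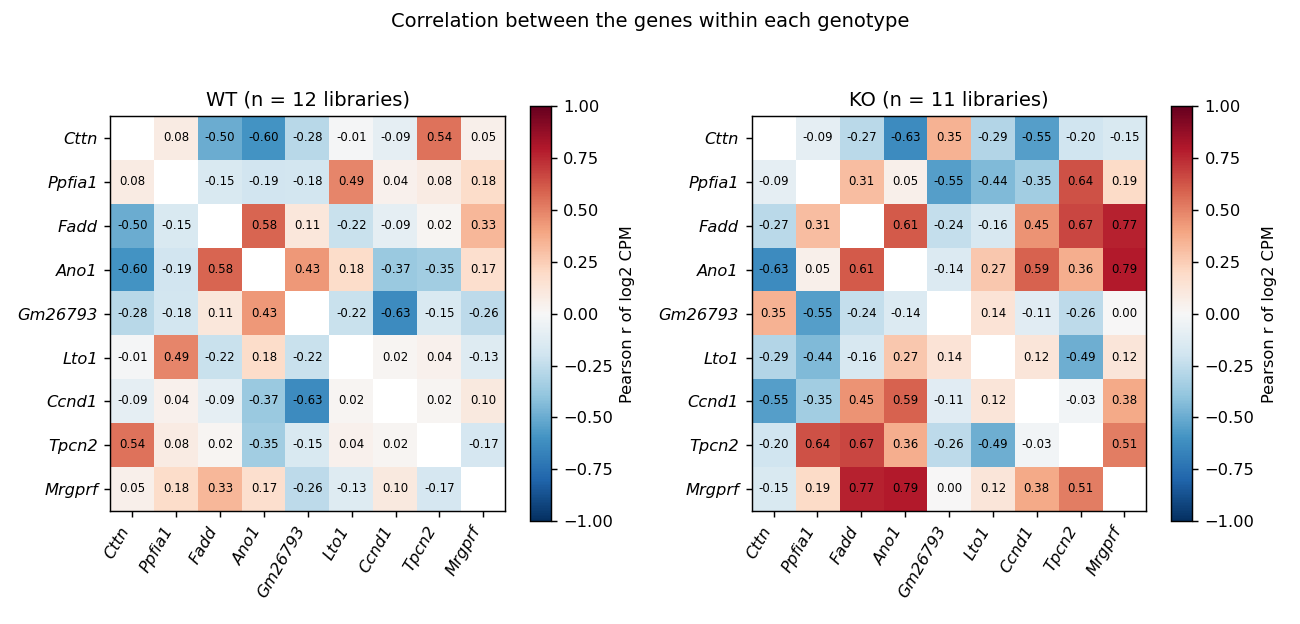
Pearson's r of log2 CPM between the 8 tested genes and Ccnd1 within WT (left, n = 12) and within KO (right, n = 11), genes in chromosome order, with the colour scale from -1 to 1. Values run from -0.63 to 0.58 in WT and from -0.63 to 0.79 in KO, and 0 pairs passed 0.05 after adjustment. The lowest WT value is that of Gm26793 with Ccnd1, and nothing is read from the WT pairs of Gm26793. Without those pairs the lowest is -0.60 (Ano1 with Cttn).

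As a description, each gene was set against the 14941 tested genes with a mean of at least 1 CPM, by Spearman's rho over the 23 libraries after subtracting each genotype's mean. The 3 nearest genes lay on chromosomes other than 7 for each gene. The share of chromosome 7 among the ranked genes was not set beside this, so nothing is read from it. All points share the libraries and their tissue content. Ano1 was closest to Zic1 (rho 0.90), Col6a3 (0.89) and Ctxn3 (0.88). Mrgprf was closest to Serpinf1 (0.88), F13a1 (0.84) and Ptgds (0.83), Fadd to Apobec1 (0.90), Slc25a13 (0.89) and Cfap70 (0.89), and Ppfia1 to Gm36936 (0.94), Ddx17 (0.86) and Fndc3b (0.84). Tpcn2 was closest to 8430422M14Rik (0.85), Lpp (0.79) and Gm7694 (0.79), and Cttn to Serpinb8 (0.83), Iars2 (0.82) and Echdc2 (0.81). Lto1 was nearest to Chsy3 (0.75), Tox (0.72) and Ing1 (0.72), and Gm26793 to Gm4430 (0.64), Afg3l2 (0.64) and Fjx1 (0.62). The ranks of Gm26793 include WT 23 and 11 other WT libraries with 0 to 5 counts, so nothing is read from its nearest genes.

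The proteins these genes work with were examined in 8 lists, with 76 distinct tested genes. By edgeR's test 0 of 76 were called at an adjusted p below 0.05, and 2 of 76 (2.63%) had an unadjusted p below 0.05, beside 5.74% of all tested genes. These were the FGF receptor gene Fgfr3, at 0.13 on the log2 scale (SE 0.0596, adjusted p = 0.781 by edgeR), and Jpt2, whose product binds the NAADP messenger of endolysosomal channels, at 0.43 (SE 0.204, adjusted p = 0.781 by edgeR). Median log2 fold changes were -0.054 for FGF15 signalling (11 tested), -0.099 for cortactin and branched actin (19), -0.047 for liprin-alpha partners (14) and 0.04 for the death receptor genes (8). They were 0.021 for the other anoctamins (7), 0.065 for endolysosomal channel genes (5), -0.0077 for partners of Lto1 (5) and -0.11 for partners of cyclin D1 (7), against 0.00309 over all tested genes. Negative signs were 49.0% of all tested genes. They were 18 of 19 in the cortactin list, Shank2 included, 9 of 14 in the liprin-alpha list, 7 of 11 for FGF15 signalling, 5 of 7 for cyclin D1 partners and 3 of 5 for Lto1 partners. They were 3 of 7 among anoctamins, 2 of 8 among death receptor genes and 0 of 5 among endolysosomal genes. Without KO 8 the cortactin list had 17 of 19 and a median of -0.046. Without the 6 libraries with RNA of other tissue it had 15 of 19 (78.9%) and a median of -0.038, and the liprin-alpha list 12 of 14 (85.7%), against 52.7% of all tested genes, so the lean was not particular to the cortactin list. The medians of the other 7 lists then ran from -0.076 to 0.05, and those of the death receptor, anoctamin and Lto1 lists changed sign. The lower KO median of the neuron markers, given with Cttn, stands beside these signs, and its part in them was not tested. The genes with the smallest p in the other 6 lists were Shank3 (-0.22, SE 0.115), Ptprf (0.23, SE 0.127), Tnfrsf1a (0.18, SE 0.142), Ano2 (-0.62, SE 0.322), Abce1 (-0.08, SE 0.0487) and Rb1 (-0.11, SE 0.0647), with edgeR adjusted p from 0.781 to 0.793.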

How the data were processed

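RNA was extracted from dissected hippocampus with Trizol and columns, and libraries were prepared with a stranded mRNA kit, per the labels' protocols. The submitters' processing notes list bcl2fastq, STAR and mm10; the counting program, its use of strand and the annotation release are not given in the sources used here. The deposited table holds the authors' estimated counts for 23 libraries, and 24.6% to 27.2% of its non-zero values were fractional. Columns were matched by library name, 0 being left over. No 2 libraries of a genotype agreed within sampling noise (chi-square per degree of freedom at least 6.91).

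Rounded counts went into edgeR 4.0.16 under R 4.3.3 (filterByExpr, TMM, robust quasi-likelihood F test, Benjamini-Hochberg adjustment over 15828 genes holding 99.84% of counts), a pipeline also tested on simulated data. SEs come from the fold change and F statistic. CPM use TMM-scaled totals and unrounded counts. Correlations used log2 CPM (prior count 2) and two-sided permutation tests of 100000 resamples (numpy 2.4.6, scipy 1.17.1, Python 3.11.15). Positions are from GENCODE M21 (GRCm38), the build named mm10 in the notes. The genes and lists were chosen with earlier results of these data known. Named genes are the 9, Ccnd1, other genes within 1 Mb, the 3 of most similar pattern, and per list the called genes or the 1 with the smallest p. Alternatives were RLE factors, DESeq2 1.42.0, limma 3.58.1 voom with quality weights, 2 other filters, a choroid plexus covariate or residual, another prior count or threshold, and leaving out libraries.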

Additional observations from a re-analysis of the deposited data

How the results depend on the processing

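The count of genes called between KO and WT was 2, and it was 1 with a minimum mean of 50 counts, where fewer genes were tested, 4 with DESeq2 and 4 with limma voom. Of the genes beside Ccnd1, 1 was called, and 0 with that filter, which leaves out Gm26793, and 2 with voom, which adds Ppfia1 (log2 fold change -0.27). Without 1 library at a time the counts ran from 2 to 3 and stayed at 1. No fold change of the 8 tested genes changed sign in an alternative in which it was fitted. Mrgprf could not be fitted without WT 11, without WT 14, without the 6 libraries with RNA of other tissue or under the filter on 50 counts. Correlated pairs numbered 0 in WT and 0 in KO, also without each library (0 to 0). They numbered 1 in WT and 3 in KO when log2 CPM were first fitted on the choroid plexus score. The cause was not tested, and the pairs of that fit were not recomputed without single libraries. The pair in WT was Fadd with Cttn (r = -0.80, permutation p = 0.00208, adjusted 0.0374), and those in KO were Mrgprf with Ccnd1, Mrgprf with Ano1 and Ano1 with Cttn (for the last r = -0.81, permutation p = 0.00121, adjusted 0.029, but rho = -0.67, permutation p = 0.0276, adjusted 0.331). The sign counts of the lists without libraries and the correlations without the WT pairs of Gm26793 (0 in WT and 0 in KO) were added after seeing the data. No paired analysis was possible because WT and KO share no replicate number. Low counts limit Gm26793, Fgf15 and Mrgprf.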

Other observations

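The 9 other genes of the table that start within 1 Mb of Ccnd1 were nearly silent apart from Shank2, the postsynaptic scaffold gene. Shank2 held 141 to 225 CPM in WT and 74.5 to 210 CPM in KO. Fgf4, Mrgprd, Gm10152 and Mir3105 had 0 counts in all 23 libraries. Fgf3, a growth factor gene of early development, held 32 counts over the 12 WT libraries (0 to 0.584 CPM) and 40 over the 11 KO libraries (0 to 0.420 CPM), and Gm14372, antisense to Shank2, 31 and 22 counts. Gm14376, within Cttn, held 2 and 0 counts, and Faddos 2.27 and 2.36. The genotypes overlapped at each of these, and 8 of the 9 were too low to be tested.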
